A study of Mus musculus with 6 samples.

Results

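The 61 genes described here are the protein-coding neighbours of Slc1a2 on mouse chromosome 2. They were chosen by position and by annotation only, as coding genes that start between bases 94658659 and 110790784 of chromosome 2 (GRCm38), which is within 8 Mb of either end of Slc1a2. Of the 182 genes listed in this window, 64 were coding and 0 of these had an olfactory receptor name (Olfr). Slc1a2 itself, Cd44 and Bdnf were left out, which gave 61 of the 54532 genes of the table. In all, 13 of the 61 start before Slc1a2 and 48 after it, and 44 had a mean of at least 0.1 FPKM (reads on a gene, scaled to the length of the gene and to the reads of the library) and were tested. The question was whether the knock-in of Slc1a2 went with a difference in expression of the genes around it.

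RNA-seq was compared between the hippocampus of 3 wild-type (WT1 to WT3) and 3 knock-in (TG1 to TG3) mice. TG mice carry G82R and L85P, 2 amino acid changes of GLT-1, the astrocytic glutamate transporter that Slc1a2 encodes. Both changes were placed in 1 exon of the endogenous gene with Cas9, a pair of guide RNAs and a donor with homology arms, in C57BL/6N zygotes. No transgene promoter was used, and founders were mated with C57BL/6 mice of a substrain that is not named. Littermates without the alleles served as controls. The zygosity, age and sex of the sequenced mice were not given in the sources used here, nor how many founders the line came from. The samples were taken as separate mice from their labels, and if they were not, p-values would measure technical spread only.

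A gene edited in zygotes is passed on together with the chromosome around it. Genes close to an edited locus can therefore carry alleles of the edited embryo when the line is crossed to another strain or substrain, and an insertion or deletion can also touch neighbouring promoters or enhancers. The genes around Slc1a2 have no common function. They include Pax6 and Elp4, a neighbouring pair in which the distant enhancers of Pax6 lie within Elp4, the mitochondrial gene Pdhx, the antioxidant enzyme gene Cat, the recombination genes Rag1 and Rag2, and genes of the neuronal membrane such as Lrrc4c, Kcna4 and Ano3.

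Each library held between 16081281 and 18751057 reads on genes, so that 3 reads on a gene of 1 kb stood for 0.160 to 0.190 FPKM. All 10 markers of hippocampal pyramidal and granule cells, all 8 neuronal and all 10 astrocytic markers had a mean of at least 1 FPKM. TG1 and TG2 stood apart from the other 4 libraries through markers of the choroid plexus, the epithelium that secretes cerebrospinal fluid. The summed level of its 15 markers was 58.5 to 83.4 FPKM in WT, 1224 FPKM in TG1, 3870 FPKM in TG2 and 67.2 FPKM in TG3. Results below that rest on TG1 and TG2 are given with TG3 alone as well. Some are also given from a fit with the level of these markers as a covariate. As only TG1 and TG2 had a high level, that fit rests mainly on TG3 and is no separate check. In bulk tissue, fewer cells of a type and less RNA per cell cannot be told apart.

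The 44 tested neighbours spanned levels from Trim44, at a WT mean of 58.0 FPKM, to Prrg4, at 0.259 FPKM. Their median WT level was 5.29 FPKM, with 38 genes at a mean of at least 1 FPKM and 13 at a mean of at least 10 FPKM. Spread between mice was small for most of them. The median coefficient of variation was 9.47% in WT and 8.11% in TG, and the extremes were Lmo2 (1.61%) and 4931422A03Rik (74.4%) in WT and Caprin1 (1.25%) and Prrg4 (80.4%) in TG. Of the 44, 1 had a mean under 10 reads, which was Cd59b.

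**Figure D1:**
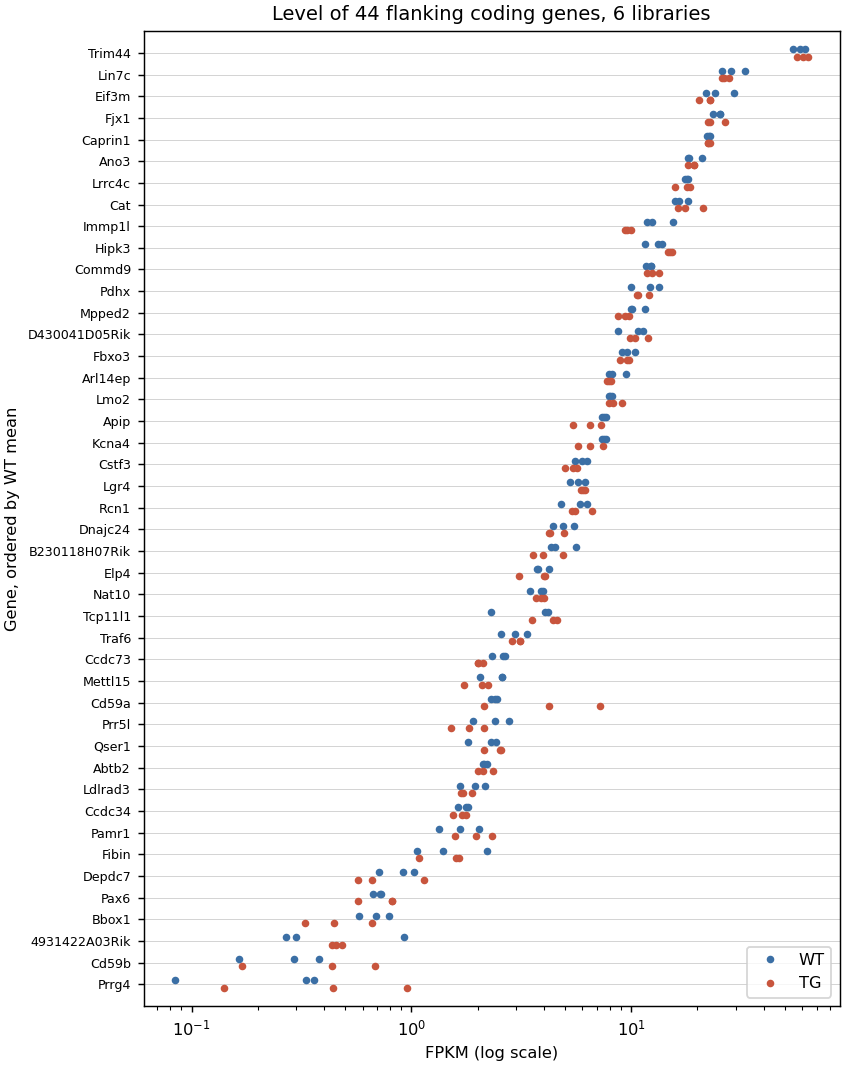
FPKM on a log scale in each of the 6 libraries for the 44 tested genes around Slc1a2, ordered by the WT mean (blue points WT, red points TG). For most genes the TG points lie among or beside the WT points, whereas Cd59a lies at 4.22 and 7.18 FPKM in TG1 and TG2 and between 2.14 and 2.45 FPKM in the other libraries.

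No neighbouring gene differed between TG and WT after adjustment over all genes. In limma with Benjamini-Hochberg adjustment, 0 of 44 neighbours had an adjusted p under 0.05, against 2 of 20952 genes (0.00955%). No coding gene elsewhere passed either, with 0 of 15125 coding genes tested and 0 of 1159 other coding genes of chromosome 2. At an unadjusted p under 0.05 there were 3 of 44 neighbours, or 6.82%, against 5.91% of all genes tested, 5.45% of all coding genes tested and 5.78% of the 1159 other coding genes tested on chromosome 2. In each direction, 1 neighbour was higher (2.27%, against 3.13% of all genes, 3.19% of coding genes and 2.85% of the other coding genes of chromosome 2) and 2 were lower (4.55%, against 2.78%, 2.25% and 2.93%). These shares lay near the background. The lowest adjusted p of the 44 was 0.786.

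The median log2 fold change (TG over WT) of the 44 was -0.04, with 19 genes above 0 and 25 below, and the middle part of the list, from the first to the third quartile, ran from -0.15 to 0.06. The same median was -0.00 for all genes, 0.01 for all coding genes and 0.00 for the other coding genes of chromosome 2. A log2 fold change beyond 0.5 in either direction was seen in 4.55% of the neighbours and in 5.44% of the other coding genes of chromosome 2. The precision was similar too. The 95% interval of a single neighbour reached a median of 0.27 to either side on the log2 scale, against 0.28 for the other coding genes of the chromosome and 0.39 for all genes. In the individual libraries, the median difference of the 44 from the WT mean was between -0.01 and 0.03 in WT and between -0.04 and -0.02 in TG, so that all 3 TG medians lay below the 3 WT medians, by little.

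WT and TG values did not overlap in 5 of the 44 genes, or 11.4%, against 12.1% of all genes tested, 13.1% of coding genes and 13.5% of the other coding genes of chromosome 2. In 1 of these all TG values lay above all WT values (2.27%, against 6.35%, 7.29% and 7.51% in the same 3 sets). In 4 they lay below (9.09%, against 5.71%, 5.82% and 6.04%). With 3 mice against 3, an exact permutation test of 1 gene cannot go below p = 0.1, and the p-values given here come from the limma fit across all genes.

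**Figure D2:**
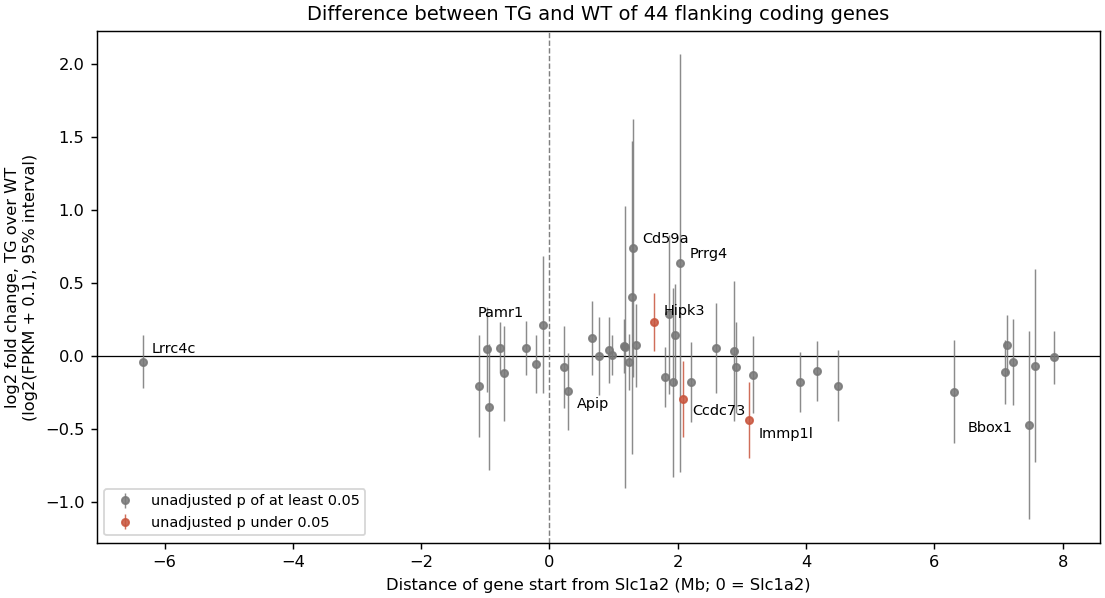
Log2 fold change (TG over WT) of the 44 tested genes with 95% intervals from limma, against the distance of each gene from Slc1a2 in Mb, with genes before Slc1a2 at negative values. Red points have an unadjusted p under 0.05, which are Hipk3, Ccdc73 and Immp1l, all more than 1 Mb after Slc1a2, and the widest intervals are those of Prrg4, Cd59b and 4931422A03Rik, genes with few reads.

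None of the 3 nearest tested genes of the list on either side of Slc1a2 passed the test. Distances are from the start coordinate of each gene to the nearer end of Slc1a2 and are negative before it. Pamr1, at -0.109 Mb (chr2:102550012-102643041), codes for a secreted protein with a peptidase-like domain. The 3 WT mice, in the order of their numbers, had 2.03, 1.34 and 1.66 FPKM of Pamr1, and the 3 TG mice 1.58, 1.97 and 2.33 FPKM, and all values below are given in this order. The groups overlapped, and the log2 fold change was 0.21 (95% interval -0.26 to 0.68, adjusted p = 0.796 in limma).

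Fjx1 (chr2:102449366-102452499) codes for a secreted regulator related to the fly protein four-jointed. Its FPKM was 25.4, 23.6 and 25.4 in WT and 26.6, 22.7 and 22.4 in TG, with the highest and the lowest value both in TG. Its log2 fold change was -0.06 (95% interval -0.26 to 0.14). Trim44 (chr2:102300119-102407828), a tripartite motif protein of the ubiquitin system and the most abundant of all the neighbours, was at 61.6, 58.4 and 54.2 FPKM in WT and at 63.6, 56.8 and 60.2 FPKM in TG. Its groups overlapped as well, and the interval of its log2 fold change of 0.05 ran from -0.13 to 0.24.

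On the other side, the nearest tested genes of the list were Pdhx, Apip and Cat. Cd44, which was left out of the list, lies between Slc1a2 and Pdhx. Its log2 fold change was -0.09 (adjusted p = 0.928 in limma). Pdhx (chr2:103021075-103073513, 0.230 Mb after Slc1a2) codes for the component of the mitochondrial pyruvate dehydrogenase complex that holds its E3 enzyme. FPKM of Pdhx was 12.2, 9.92 and 13.4 in WT and 12.03, 10.7 and 10.7 in TG, so the TG values lay within the WT range. The log2 fold change was -0.08 (95% interval -0.36 to 0.20).

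Apip (chr2:103073675-103092644, 0.283 Mb after Slc1a2), an enzyme of the methionine salvage pathway, was at 7.68, 7.55 and 7.37 FPKM in WT and at 5.43, 7.25 and 6.48 FPKM in TG. All TG values were lower than all WT values, TG2 by a small margin. The means were 7.53 ± 0.155 FPKM and 6.39 ± 0.912 FPKM (SD, n = 3), with 86 to 142 reads per library, and the log2 fold change of -0.24 (95% interval -0.51 to 0.02) had an adjusted p of 0.786 in limma and was not under 0.05 unadjusted. Without TG2 it was -0.34 and its unadjusted p was under 0.05, with an adjusted p of 0.812 in limma.

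Cat (chr2:103453849-103485160, 0.663 Mb after Slc1a2) codes for catalase, which breaks down hydrogen peroxide. It was at 18.2, 15.8 and 16.4 FPKM in WT and at 16.4, 21.1 and 17.5 FPKM in TG. Only the value of TG2 lay above the WT range, and the log2 fold change was 0.12 (95% interval -0.13 to 0.38). It was 0.06 with TG3 alone against WT, and -0.01 with the choroid plexus level of each library as a covariate.

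Pdhx and Apip are transcribed away from each other, and 161 bases lie between their annotated starts. This stretch is shown because the 2 genes share it as their upstream sequence and are the nearest tested neighbours of the list after the edited gene. It is read on the plus strand of GRCm38, chr2:103073514-103073674, with capitals for GGGCGG, the GC box, on either strand (here as its reverse complement).
Pdhx-Apip: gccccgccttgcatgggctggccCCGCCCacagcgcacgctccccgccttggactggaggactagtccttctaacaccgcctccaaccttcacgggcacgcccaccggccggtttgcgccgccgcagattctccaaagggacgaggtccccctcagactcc
The stretch had 68.9% G and C, 14 CpG dinucleotides, 1 GC box and 0 CCAAT boxes. The TG values of Apip lay below all WT values and those of Pdhx within the WT range, and the difference between the 2 genes was not tested.

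The gene with the lowest p among the neighbours was Immp1l (chr2:105904638-105965558, 3.11 Mb after Slc1a2), a subunit of the peptidase that cuts targeting sequences off proteins of the inner mitochondrial membrane. Its FPKM was 11.8, 12.4 and 15.5 in WT and 9.40, 9.58 and 9.97 in TG. All TG values lay close together and below all WT values, of which WT3 was the highest. The means were 13.2 ± 1.99 FPKM and 9.65 ± 0.294 FPKM (SD, n = 3).

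The log2 fold change of Immp1l was -0.44 (SE 0.11, 95% interval -0.70 to -0.18), on 142 to 277 reads per library, with an unadjusted p under 0.05 in limma and an adjusted p of 0.786. The unadjusted p stayed under 0.05 without any 1 of the 6 libraries. TG3 alone, the library without an excess of choroid plexus markers, gave -0.39 against WT, and the fit with the choroid plexus level as a covariate gave -0.38, both with an unadjusted p above 0.05. Of all 50-base stretches of its annotated transcripts, 33.8% also occurred in other genes, mainly in Gm8121, a processed pseudogene on chromosome 5. Reads of such stretches may be split between the copies in a way that is not given in the sources used here, and the value of Immp1l is uncertain to that extent. Gm8121 was at 9.21, 9.18 and 9.42 FPKM in WT and at 5.45, 9.39 and 13.5 FPKM in TG, with TG1 low and TG3 high, on 43 to 122 reads.

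Immp1l also forms a head-to-head pair, with Elp4, a subunit of the Elongator complex that modifies tRNA. Only 73 bases lie between their annotated starts, chr2:105904565-105904637 of GRCm38, printed on the plus strand with CCAAT boxes on either strand in capitals (ATTGG is the box read from the other strand).
Elp4-Immp1l: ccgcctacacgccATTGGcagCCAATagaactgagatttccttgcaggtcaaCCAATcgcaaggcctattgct
It held 3 CCAAT boxes, 0 GC boxes and 3 CpG dinucleotides at 52.1% G and C. Elp4 was picked for its place beside Immp1l after the values were seen, and was at 4.24, 3.77 and 3.72 FPKM in WT and at 4.02, 4.05 and 3.07 FPKM in TG. Of the TG values, only TG3 was below the WT range. Elp4 had a log2 fold change of -0.08 (95% interval -0.39 to 0.23, adjusted p = 0.885 in limma), and the difference between the 2 genes of the pair was not tested.

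**Figure D3:**
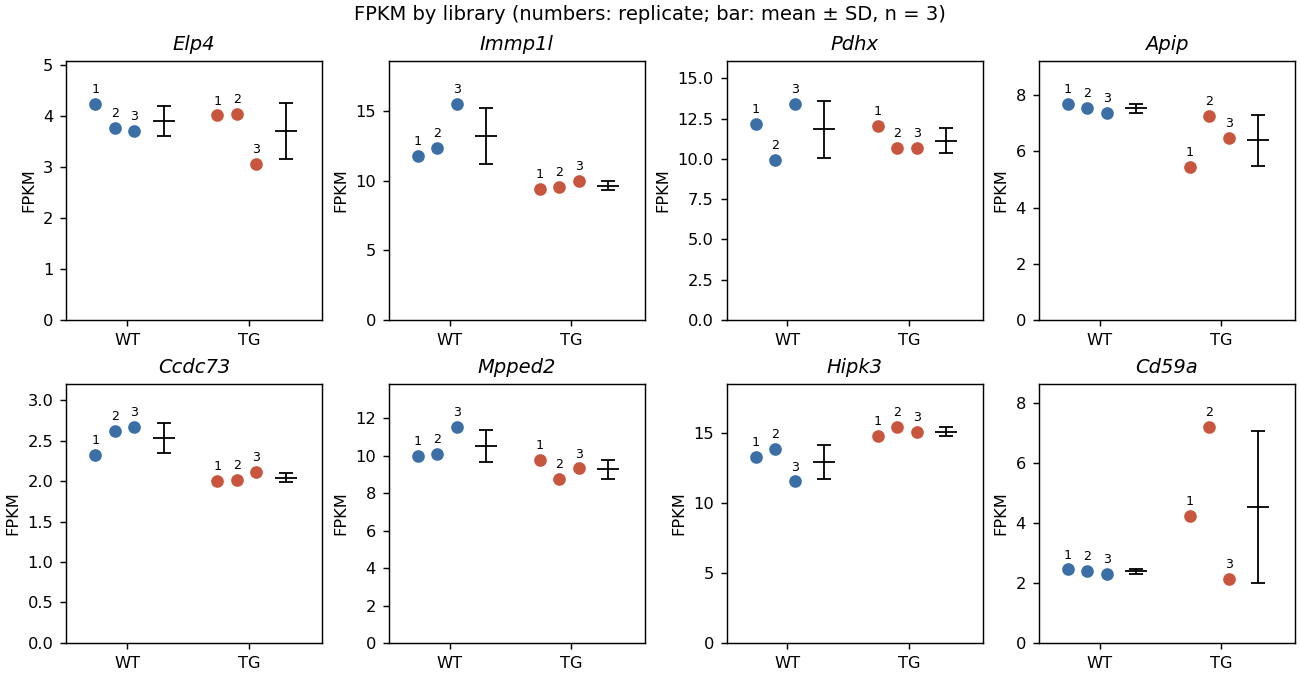
FPKM in each library (points, numbered by replicate) with the mean ± SD of 3 mice. Shown are the genes of both head-to-head pairs described in the text (Elp4 and Immp1l, Pdhx and Apip) and Cd59a. The remaining panels are the other 3 tested genes whose groups do not overlap (Ccdc73, Mpped2, Hipk3). The TG points of Immp1l lie between 9.40 and 9.97 FPKM, below the lowest WT point at 11.8 FPKM, whereas those of Cd59a spread from 2.14 to 7.18 FPKM.

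Hipk3 (chr2:104426481-104494446, 1.64 Mb after Slc1a2) was the only tested neighbour whose TG values all lay above the WT values. It codes for a nuclear serine/threonine kinase that binds homeodomain transcription factors. FPKM of Hipk3 was 13.3, 13.8 and 11.5 in WT and 14.7, 15.4 and 15.1 in TG, with means of 12.9 ± 1.21 FPKM and 15.1 ± 0.316 FPKM (SD, n = 3). The WT mice were the more spread group, with WT3 lowest.

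Its log2 fold change was 0.23 (SE 0.084, 95% interval 0.03 to 0.43), with an unadjusted p under 0.05 in limma and an adjusted p of 0.786. Without TG2, and likewise without TG3, the unadjusted p was above 0.05. Because Hipk3 was the only neighbour higher in TG at an unadjusted p under 0.05, the 250 bases before its RefSeq start are given, on the minus strand of chr2:104494490-104494739 (GRCm38.p6), with GC boxes on either strand in capitals.
Hipk3: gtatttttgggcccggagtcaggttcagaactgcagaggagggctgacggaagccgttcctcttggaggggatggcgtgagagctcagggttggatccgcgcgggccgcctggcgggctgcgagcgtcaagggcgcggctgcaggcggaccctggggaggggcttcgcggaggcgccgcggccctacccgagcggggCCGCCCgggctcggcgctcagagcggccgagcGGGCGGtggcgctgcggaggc
This stretch had 74% G and C, 31 CpG dinucleotides, 2 GC boxes and 0 CCAAT boxes.

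Ccdc73 (chr2:104867805-105017904, 2.08 Mb after Slc1a2), a coiled-coil protein gene of little known function, was at 2.32, 2.62 and 2.66 FPKM in WT and at 2.00, 2.01 and 2.11 FPKM in TG. All TG values were below all WT values, with means of 2.54 ± 0.184 FPKM and 2.04 ± 0.0601 FPKM (SD, n = 3). The log2 fold change was -0.30 (SE 0.11, 95% interval -0.56 to -0.04), on 138 to 217 reads, with an unadjusted p under 0.05 in limma and an adjusted p of 0.786. The unadjusted p was above 0.05 when WT2, WT3 or any 1 TG library was left out. Eif3m lies within Ccdc73 on the opposite strand and shares 82 exon bases with it, and reads of that stretch cannot be assigned without strand.

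Eif3m (chr2:104999656-105017080), a subunit of the translation initiation factor eIF3, was at 24.0, 21.8 and 29.4 FPKM in WT and at 20.3, 22.8 and 22.8 FPKM in TG. The groups overlapped, as WT2 lay below 2 of the TG values, and the log2 fold change was -0.18 (95% interval -0.46 to 0.09, adjusted p = 0.789 in limma). Of its 50-base stretches, 17.2% were shared, mainly with the processed pseudogene Gm7658, which was at 0.843 to 2.09 FPKM.

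The last tested gene without overlap was Mpped2 (chr2:106693269-106868356, 3.90 Mb after Slc1a2), a metallophosphodiesterase. It was at 9.996, 10.1 and 11.5 FPKM in WT and at 9.78, 8.75 and 9.33 FPKM in TG. TG1 and WT1 were close to each other, and the log2 fold change was -0.18 (95% interval -0.38 to 0.02), with an adjusted p of 0.786 in limma.

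By role, the neighbours of mitochondria and metabolism were Pdhx, Apip, Cat, Immp1l, Mpped2 and Bbox1, and 6 of 6 were tested. Their median log2 fold change was -0.21, with 5 below 0, and 1 (Immp1l) had an unadjusted p under 0.05. In 3 of them, Immp1l, Apip and Mpped2, all TG values lay below all WT values. Over all genes tested, 2.78% were lower at an unadjusted p under 0.05 and 5.71% had all TG values below all WT values, and a list of 6 genes is too short to set its counts against these shares. Bbox1, the last enzyme of carnitine synthesis, was at 0.688, 0.576 and 0.789 FPKM in WT and at 0.445, 0.659 and 0.327 FPKM in TG. TG2 lay within the WT range, and the log2 fold change of -0.47 had a 95% interval from -1.12 to 0.17.

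All 4 tested genes of the neuronal membrane and synapse had negative log2 fold changes, from -0.20 to -0.01, with a median of -0.08 and 0 of 4 at an unadjusted p under 0.05. Lin7c (chr2:109890853-109901003), a PDZ scaffold protein of synapses and the most abundant of them, was at 26.0, 28.3 and 32.8 FPKM in WT and at 26.5, 27.9 and 25.8 FPKM in TG. The groups overlapped, and its log2 fold change was -0.11 (95% interval -0.33 to 0.11). Kcna4, the voltage-gated potassium channel Kv1.4, was at 7.50, 7.66 and 7.36 FPKM in WT and at 7.41, 5.72 and 6.47 FPKM in TG, and TG1 lay within the WT range. Its log2 fold change of -0.20 had a 95% interval of -0.45 to 0.04. Lrrc4c, a postsynaptic ligand of netrin-G1, and Ano3, an anoctamin, had log2 fold changes of -0.04 and -0.01. The fifth gene of the list, the carrier gene Slc5a12, had 0 to 5 reads and was not tested.

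Among the transcription and chromatin regulators, 5 of 8 were tested, with a median log2 fold change of 0.07, and only Hipk3 had an unadjusted p under 0.05. Pax6, the eye and forebrain transcription factor, was at 0.708 ± 0.0314 FPKM in WT and 0.734 ± 0.140 FPKM in TG (SD, n = 3). Its log2 fold change was 0.03 (95% interval -0.45 to 0.51). Lmo2 had a log2 fold change of 0.07 and Qser1 one of 0.14.

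The 6 genes of RNA and translation had a median of -0.14, from -0.25 (Mettl15) to 0.04 (Nat10), and 0 of 6 had an unadjusted p under 0.05. Caprin1, an RNA-binding protein of stress granules, was the least variable neighbour in TG, at 22.1, 22.9 and 22.5 FPKM in WT and 22.4, 22.4 and 22.9 FPKM in TG. The range of its TG values lay inside that of its WT values. The log2 fold change was 0.00, with a 95% interval from -0.13 to 0.14.

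The 9 genes of ubiquitin and signalling, among them Traf6, Fbxo3, Commd9 and Trim44, ran from -0.35 (Prr5l) to 0.05 (Trim44), with a median of -0.04 and 0 of 9 at an unadjusted p under 0.05. In the cytoskeleton, cilia and spermatogenesis list, 4 of 5 were tested, with a median of -0.13. The most abundant of these was B230118H07Rik (chr2:101560781-101649532, named Iftap in RefSeq), linked to intraflagellar transport, at 4.50, 4.32 and 5.59 FPKM in WT and 3.58, 3.98 and 4.91 FPKM in TG. TG3 lay within the WT range, and the log2 fold change of -0.21 (95% interval -0.56 to 0.14) was 0.04 with TG3 alone against WT.

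Of the secreted proteins and receptors, 3 of 4 were tested (Lgr4, Rcn1 and Fibin), with a median of 0.05. Lgr4 (chr2:109917647-110014257), a receptor for R-spondins in Wnt signalling, was at 6.19, 5.72 and 5.27 FPKM in WT and at 6.15, 6.05 and 5.89 FPKM in TG. TG values lay within the WT range, and its log2 fold change was 0.08 (95% interval -0.13 to 0.28). The 12 genes outside these lists included 4 that were tested, Pamr1, D430041D05Rik, 4931422A03Rik and Arl14ep, with log2 fold changes from -0.10 to 0.21.

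**Figure D4:**
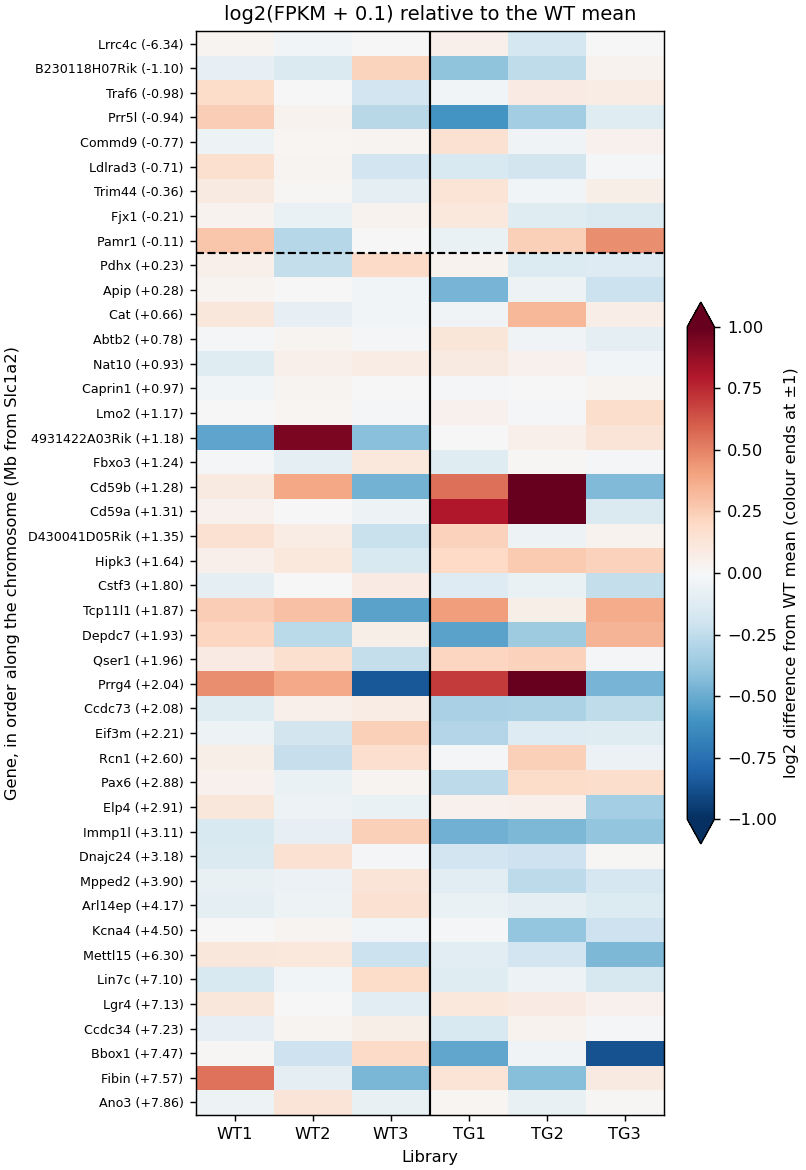
Difference of each library from the WT mean on the log2(FPKM + 0.1) scale for the 44 tested genes in chromosome order, with the distance from Slc1a2 in Mb after each name. The dashed line marks the place of Slc1a2, the solid line parts WT from TG, and the colour scale ends at differences of 1 in either direction. Cd59a, Cd59b and Prrg4 are high in TG1 and TG2 and not in TG3, and most other rows stay pale.

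The neighbours with the highest positive log2 fold changes were the 3 tested genes of the cell surface, Cd59a, Prrg4 and Cd59b, and their high values were in 2 of the TG libraries. Cd59a (chr2:104095801-104115354, 1.31 Mb after Slc1a2) codes for a membrane-anchored inhibitor of the terminal complement complex. It was at 2.45, 2.39 and 2.30 FPKM in WT and at 4.22, 7.18 and 2.14 FPKM in TG. TG1 and TG2 lay above all WT values and TG3 below all of them.

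The means of Cd59a were 2.38 ± 0.0750 FPKM in WT and 4.51 ± 2.53 FPKM in TG (SD, n = 3). The log2 fold change was 0.74 (SE 0.38, 95% interval -0.15 to 1.62), with an adjusted p of 0.789 in limma. With TG3 left out it was 1.18, with an unadjusted p under 0.05 and an adjusted p of 0.323 in limma, and with TG2 left out it was 0.33. TG3 alone gave -0.15 against WT, and the fit with the choroid plexus level as a covariate gave -0.23. Its paralog Cd59b, 1.28 Mb after Slc1a2, shares 3.87% of the 50-base stretches of Cd59a.

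Cd59b was at 0.291, 0.381 and 0.164 FPKM in WT and at 0.437, 0.687 and 0.170 FPKM in TG, on 4 to 16 reads. Of its 50-base stretches, 14.1% were shared with other genes, mainly with Efr3a (8.74%), a coding gene on chromosome 15 with 2940 to 3660 reads. The value of Cd59b is uncertain to that extent. Prrg4, a membrane protein with a vitamin K-dependent Gla domain, was at 0.359, 0.333 and 0.0844 FPKM in WT and at 0.439, 0.952 and 0.140 FPKM in TG, on 5 to 54 reads. Both were named after their values were seen. In both, TG1 and TG2 lay above all WT values while TG3 lay within the WT range, and their 95% intervals of -0.67 to 1.47 and of -0.80 to 2.06 (log2 fold change) included 0. Cd59b had a log2 fold change of 0.40, and -0.44 with TG3 alone against WT and -0.52 with the choroid plexus covariate. That of Prrg4 was 0.63, and -0.47 and -0.64 in the same fits, so that the direction of both genes turned. Both fits rest mainly on TG3 and are not separate checks.

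In Cd59a, TG2 was highest and TG1 next, as in the choroid plexus markers, whereas the remaining libraries were in a different order. On the log2 scale, the median of the 15 markers stood at 0.24, -0.02 and -0.20 in WT and at 3.27, 4.91 and 0.16 in TG1 to TG3, relative to the WT mean. Of these markers, 10 of 15 were higher in TG at an unadjusted p under 0.05 in limma. Ttr, the abundant secreted protein of this epithelium, was at 73.0, 49.8 and 66.6 FPKM in WT and at 1168, 3706 and 57.7 FPKM in TG. None of the marker lists held a neighbour of Slc1a2, and the part of these markers in the result for Cd59a was not tested.

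The 250 bases before the RefSeq start of Cd59a are set beside those of Hipk3, as the gene with the highest log2 fold change among the neighbours on the log2(FPKM + 0.1) scale, whose direction turned with TG3 alone and with the covariate (plus strand of chr2:104095551-104095800, GRCm38.p6).
Cd59a: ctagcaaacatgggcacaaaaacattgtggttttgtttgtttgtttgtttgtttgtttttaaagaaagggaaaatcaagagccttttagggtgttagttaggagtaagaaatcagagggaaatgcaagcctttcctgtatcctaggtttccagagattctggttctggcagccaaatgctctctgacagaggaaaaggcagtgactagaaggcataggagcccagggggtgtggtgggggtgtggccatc
This stretch had 44.8% G and C, with 0 CpG dinucleotides, 0 GC boxes and 0 CCAAT boxes. RefSeq promoter windows of 300 bases (250 before and 50 after a start) were found for 46 of the 61 neighbours, 57 windows in all. Their median was 56.3% G and C and 16 CpG dinucleotides, against 52.7% and 7 in all 32851 windows. GGGCGG on either strand occurred in 49.1% of them against 35.7% of all windows, CCAAT in 33.3% against 37.4% and TATAAA in 12.3% against 13.6%. The set of all windows, from 27025 genes, was not limited to coding genes, whereas the neighbours are all coding. A comparison with the windows of coding genes alone was not made.

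**Figure D5:**
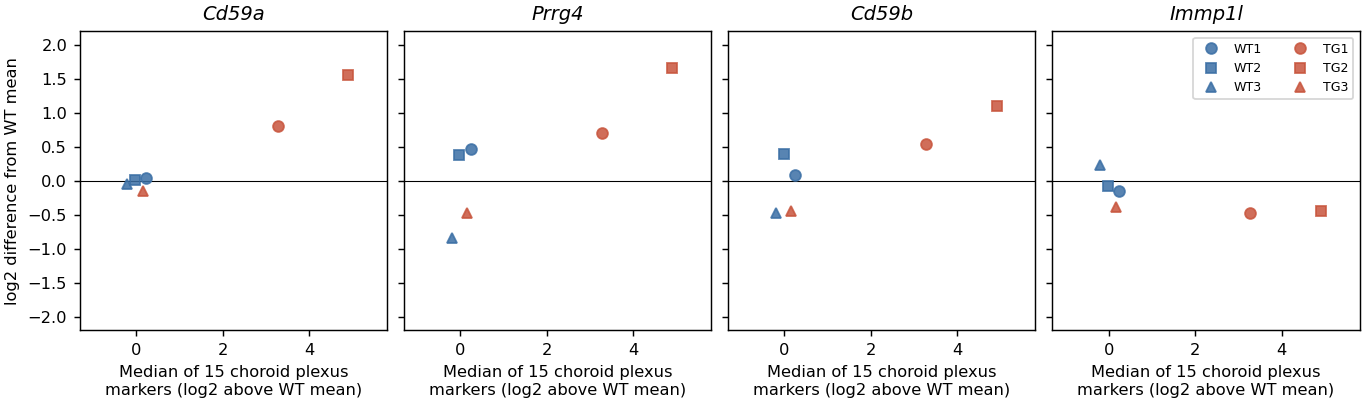
Difference of Cd59a, Prrg4, Cd59b and Immp1l from the WT mean on the log2(FPKM + 0.1) scale in each library, against the median of 15 choroid plexus markers on the same scale (blue WT, red TG, with a symbol for each replicate number). TG1 and TG2 lie far to the right, at 3.27 and 4.91, and stand highest for the first 3 genes, whereas for Immp1l all 3 TG libraries stand below the WT libraries.

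Differences showed little relation to the distance from Slc1a2. Across the 44 genes, Spearman's rho between distance and the size of the log2 fold change was 0.072, and between the WT level and that size it was -0.28. Both are descriptions over genes of the same libraries, which are not independent replicates. Within 1 Mb of Slc1a2, 7 of 13 tested genes were above 0 and 6 below, with a median log2 fold change of 0.00. Between 1 and 4 Mb, 11 were above and 10 below, with a median of 0.03.

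Between 4 and 8 Mb on either side, 9 of 10 tested genes had a log2 fold change below 0, with a median of -0.09. Lrrc4c was the only gene of these before Slc1a2. Of the genes after Slc1a2, 8 of 9 were below 0, with a median of -0.10, and Lgr4 was the exception. The 9 genes after Slc1a2 are Arl14ep, Kcna4, Mettl15, Lin7c, Lgr4, Ccdc34, Bbox1, Fibin and Ano3, and 0 of 9 had an unadjusted p under 0.05. Of all genes tested, 50.4% were below 0. Over the alternatives that kept 9 genes, the number below 0 was 6 to 8.

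The other 17 neighbours were not tested. No reads were counted in 5 of them: Rag2, which with Rag1 cuts antigen receptor genes in lymphocytes, Fshb, the beta chain of the pituitary follicle-stimulating hormone, Them7, Gm10801 and Gm11060. The other 12 had reads in at least 1 library, at most 26, and were Rag1, Ehf, Elf5, Wt1, Kif18a, Slc5a12, Muc15, Pin1rt1, A930018P22Rik, Gm10800, Gm10799 and Gm10912. Rag1 was at 0.0446 ± 0.0185 FPKM in WT and 0.0372 ± 0.0200 FPKM in TG (SD, n = 3).

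The groups did not overlap in 3 of the untested genes, all with few reads. Of all 30589 genes with any reads, 5.28% had all TG values above all WT values and 4.41% had them below. These shares were not counted for the untested genes of the table alone. Ehf, an epithelial transcription factor, was listed at 0 in all WT libraries and at 0.0340, 0.0700 and 0.00993 FPKM in TG1 to TG3, on 7 reads at most, with its highest value in TG2. A930018P22Rik was at 0.197, 0.0753 and 0.195 FPKM in WT, on 3 reads at most, and was listed at 0 in all TG libraries. Muc15, a membrane mucin, was at 0.0909, 0.0520 and 0.0599 FPKM in WT and at 0, 0.0313 and 0.0465 FPKM in TG, on 6 reads at most, and it shares 61 exon bases with Ano3 on the opposite strand. In a fit without the filter on low values, A930018P22Rik was lower in TG at an unadjusted p under 0.05 in limma, as was Gm10912 (0 to 3 reads), both with an adjusted p above 0.05.

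Of the 3 genes left out of the list, Slc1a2 was at 202, 199.5 and 177 FPKM in WT and at 222, 207 and 217 FPKM in TG. All TG values were above all WT values, by a log2 fold change of 0.16 (adjusted p = 0.789 in limma). Gene-level FPKM does not show the 2 amino acid changes, so it is no check of the genotype.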

How the data were processed

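The authors counted reads per gene with HTSeq and deposited FPKM, computed from count and gene length, in 1 table with a column for each of 3 WT and 3 TG hippocampal libraries. The submitters' processing notes name GRCm38 and mm10. The aligner and strand setting are not given in the sources used here, and the RNA and library kits differ between the methods and the labels.

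FPKM were tested on log2(FPKM + 0.1) with limma 3.58.1 (lmFit, eBayes with trend, R 4.3.3) for 20952 genes with a mean of at least 0.1 FPKM, without covariate or block, with Benjamini-Hochberg adjustment over all of them. Differences are on that scale, which understates those of low genes. Reads (FPKM times length, whole within 0.05 reads for 100% of values) entered limma-voom only. Reads are not independent molecules, so limits from reads cover counting only. The script was tested on simulated data. Alternatives changed the pseudocount, filter, scaling, variance model, covariate, block or libraries used.

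Members, role lists and markers were chosen with earlier results of these data known. Values per library are given for members with an unadjusted p under 0.05, without overlap at a mean of at least 1 FPKM, among the 3 nearest to Slc1a2 on each side, or most abundant in their role list. Other members named with values were chosen after these were seen. Exons and shared sequence come from GENCODE M21, promoters from RefSeq GRCm38.p6.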

Additional observations from a re-analysis of the deposited data

How the results depend on the processing

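No neighbour had an adjusted p under 0.05 in limma under any of 18 alternatives, and the lowest adjusted p was 0.323, for Cd59a without TG3. Of 270 values of the 15 genes named by rule, 264 kept their direction and their side of the threshold on the adjusted p. This count is a weak check. The filter, variance trend, coding-only and block settings leave the log2 fold changes of these genes as they were, so the direction could not change there. As no adjusted p came near 0.05, the side of the threshold had little room to change. The log2 fold change changed sign for Cat (-0.010), B230118H07Rik (0.0073) and Cd59a (-0.23) with the choroid plexus covariate, for B230118H07Rik (0.039) and Cd59a (-0.15) with TG3 alone against WT, and for Pdhx without WT3 (0.015, with -0.20 without WT2 at the other end). Outside these 15, Cd59b and Prrg4 also changed sign with the covariate and with TG3 alone.

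At an unadjusted p under 0.05 in limma, the covariate left 0 neighbours higher and 1 lower (Bbox1). Immp1l, Hipk3 and Ccdc73 were then above 0.05. With the covariate and with TG3 alone, the log2 fold change was 0.21 and 0.23 for Hipk3. It was -0.24 and -0.25 for Ccdc73, and -0.38 and -0.39 for Immp1l. For TG3 alone, the lone library was taken to vary as WT does. The share of all genes at an unadjusted p under 0.05 was not counted in any alternative. Counts at that threshold, here and below, therefore have no background beside them. TG3 alone gave a median log2 fold change of -0.022, with 7 of 45 neighbours above all WT values (15.6%, against 23.4% of all genes) and 15 below (33.3%, against 21.9%). Without the filter on low values there were 4 lower at an unadjusted p under 0.05 (A930018P22Rik and Gm10912 added). All TG values then lay above all WT values in 2 of 56 neighbours (Ehf added), or 3.57%, against 5.28% of all genes. They lay below in 6 of 56 (A930018P22Rik and Muc15 added), or 10.7%, against 4.41% of all genes. Without the variance trend 0 were higher. Equal library medians gave a median of -0.078, where that of all genes was -0.04.

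Leaving out 1 library at a time gave 0 to 1 neighbours higher (0 without TG2) and 1 to 3 lower (1 without TG3), a median of -0.054 (without WT2) to -0.019 (without TG1; -0.025 without TG3), 1 to 6 above all WT values (6 without TG3, 4 without TG2, 2 without WT1, WT2 or TG1) and 6 to 8 below (8 without WT3, TG1 or TG3, 7 without WT1 or WT2). Over all genes, 9.47% to 12.7% lay above and 9.12% to 12.9% below in these fits, against 2.27% to 13.3% and 13.6% to 18.2% of the neighbours. The only neighbour higher without TG3 was Cd59a. Samples of the same number deviated together by r = 0.0125, 0.0434 and 0.00314, and not every sample correlated best with its own number, so the numbers were not taken as pairs. The replicate block left 1 neighbour lower (Immp1l, with Ccdc73 no longer under 0.05). Overlap of groups was not recounted for the pseudocount, variance trend, coding-only, voom, covariate and block settings, which leave the order of the libraries unchanged or give no value per library. Depth limits genes of few reads, as 3 reads per kb stand for 0.160 to 0.190 FPKM.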
